A study of Sus scrofa with 3 samples.

Results

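SULT2A1, the gene of a cytosolic sulfotransferase of steroids, was followed through 3 pooled kidney libraries of Wuzhishan pigs, a Chinese miniature breed. It is 1 row of the 34570 in the deposited count table, found by its symbol, and was picked out because its counts differ between the libraries, so those counts are given here as a description and not as a test. All pigs were 6 to 7 months old and ate a high-fat, high-cholesterol diet (HFC). Intact males formed the group IM. The group CM was castrated, and the group CMT was castrated and received testosterone replacement. By the sample labels each library holds the mixed kidney RNA of 3 pigs, so that 9 pigs gave 3 libraries. The design text of the series speaks instead of triplicates, and of another sequencer than the sample protocol. The table used here has 1 column of counts per group, so there is no replicate and no spread between pigs can be estimated. How much testosterone was given, for how long, and what hormone levels it reached are not analysed here, and every group was on the diet, so a pig on ordinary feed was not part of the comparison.

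SULT2A1 moves a sulfate group from the donor PAPS onto hydroxysteroids such as dehydroepiandrosterone (DHEA), pregnenolone and androsterone, and onto bile acids. The sulfated steroid is soluble in water, does not bind steroid receptors, and is carried across membranes by organic anion transporters; the sulfatase STS can remove the sulfate again. The gene is known chiefly from liver, adrenal cortex and intestine. In pigs the enzyme is studied because it conjugates androstenone, a testicular steroid behind boar taint, and in the liver of rats and mice genes of this subfamily are known to be expressed more in females than in males.

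The libraries held 16459771 (IM), 18503537 (CM) and 13601475 (CMT) counts, and between 21308 and 21834 genes had a count in each. Markers of the kidney were present in all 3: 19 proximal tubule genes summed to levels of 30508, 29913 and 37749 CPM (counts scaled to a library of 1000000, here with TMM factors), in the order IM, CM, CMT. PCK1 alone made up 6824, 5387 and 13703 CPM of these sums, so the higher sum in CMT is not read as more proximal tubule. The share of ribosomal RNA genes was lowest in CM, at 1.73% against 2.03% (IM) and 2.14% (CMT). With rRNA, tRNA and mitochondrial genes left out, SULT2A1 stood at 3386 for IM over CM and 10873 for CMT over CM, beside 3385 and 10868 with them.

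SULT2A1 gave 5929 counts in the intact pool, 2 in the castrated pool and 15219 in the pool given testosterone. The order of the levels was thus CMT, IM, CM, with CM set far apart from the other two. On the TMM-scaled CPM scale these are levels of 358, 0.106 and 1150. In IM, 1 count in every 2776 came from this gene, and in CMT 1 in every 894. In CM it was 1 in 9251768, and the exact 95% interval of that level, before TMM scaling, ran from 0.0131 to 0.390 CPM. The CM level is at the lowest end of what this depth can show, since 3 counts, the value used here in place of 0, would be 0.159 CPM there. In pooled tissue, fewer cells that carry the transcript and less transcript per cell cannot be told apart.

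The ratio of IM over CM was 3385 (interval 937 to 27954) and that of CMT over CM 10868 (3008 to 89749). Both ratios share the CM library and rest on its 2 counts, which is why their intervals are wide. CMT stood above IM by 3.21-fold (3.12 to 3.31), a ratio with many counts on either side. No replicate stands behind any of these ratios, and the intervals cover counting error only. As background, an interval wholly beyond 2-fold was met by 2.71% of the 15472 compared genes in CM against IM, by 2.95% in CMT against CM and by 1.5% in CMT against IM. By direction, 1.2% of genes were higher and 1.52% lower for CM against IM. The shares were 1.84% and 1.11% for CMT against CM, and 0.905% and 0.595% for CMT against IM. SULT2A1 was among them in each comparison, and since it was chosen on these counts nothing is read from that.

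If equal amounts of RNA were mixed, as the sample protocol says, the CM count also bounds what each pig of that pool can have carried. Had 1 of the 3 castrated pigs been at the level of the intact pool and the others at 0, the CM library would hold about 2256 counts of SULT2A1. With 1 pig at the level of the CMT pool it would hold 7245. The observed 2 counts are 0.0886% and 0.0276% of these, so that under this reading no castrated pig of the pool came near either level; with another make-up of the library the arithmetic does not hold. The high pools allow no such reading: whether all 3 pigs of IM or CMT carried the transcript, or 1 of them most of it, cannot be told apart.

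**Figure D1:**
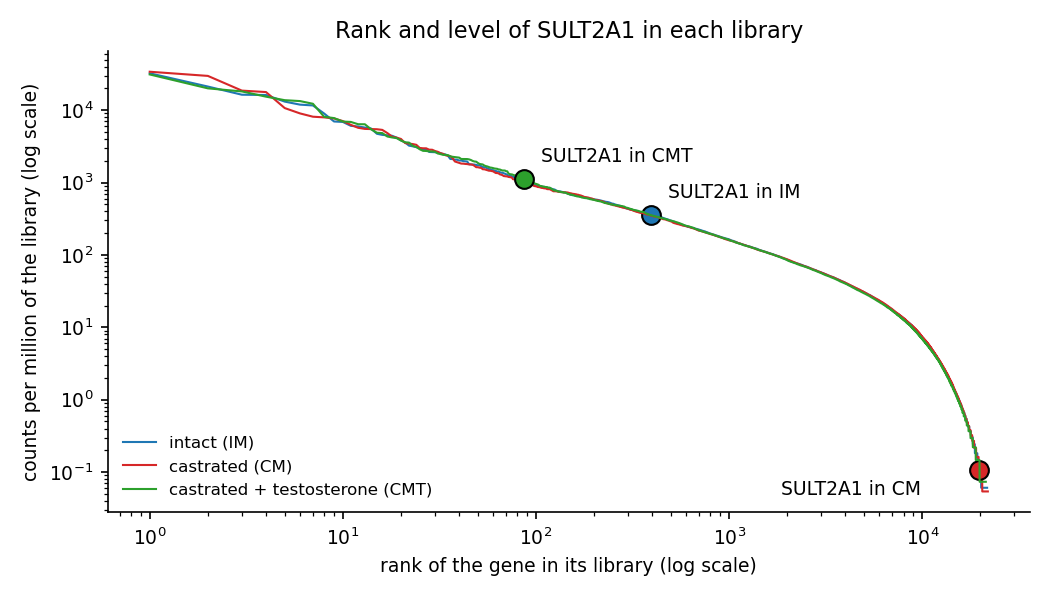
CPM against rank for every gene with a count in each library, both axes on a log scale, with SULT2A1 marked by a filled circle. The 3 curves lie nearly on each other, while SULT2A1 sits at rank 87 in CMT, rank 394 in IM and rank 19553 in CM.

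Within the libraries, SULT2A1 passed from one end of the range of expressed genes to the other. Ranked by count among all rows, it was number 394 of 21646 genes with a count in IM and number 87 of 21308 in CMT, the top 1.82% and 0.408%. In CM it shared rank 19553 of 21834 with the other genes at 2 counts, 849 genes in all. Only 1433 genes with a count were lower there. These ranks are by count and not per length, so they describe reads and not molecules. Against the median count of the compared genes in its own library, the SULT2A1 count was 25.2 times as high in IM and 82.3 times as high in CMT, and it was 0.00755 times that median in CM. In the plot of level against rank, the curves of the 3 libraries nearly overlap.

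Genes near 0 in the castrated pool were listed beside SULT2A1, with its own 2 counts in CM as the limit. Since SULT2A1 was chosen on these counts and also set the limit, nothing is read from its standing alone. The table has 15018 rows with at most 2 counts in CM, of which 3969 had a count in some library. Of these, 27 had at least 10 counts in both IM and CMT, 4 had at least 100, and 1, SULT2A1 itself, had at least 500 in either library. The next highest, chosen after the values were seen, was DCDC2B, of the doublecortin domain family, with 190 counts in IM, 0 in CM and 102 in CMT.

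**Figure D2:**
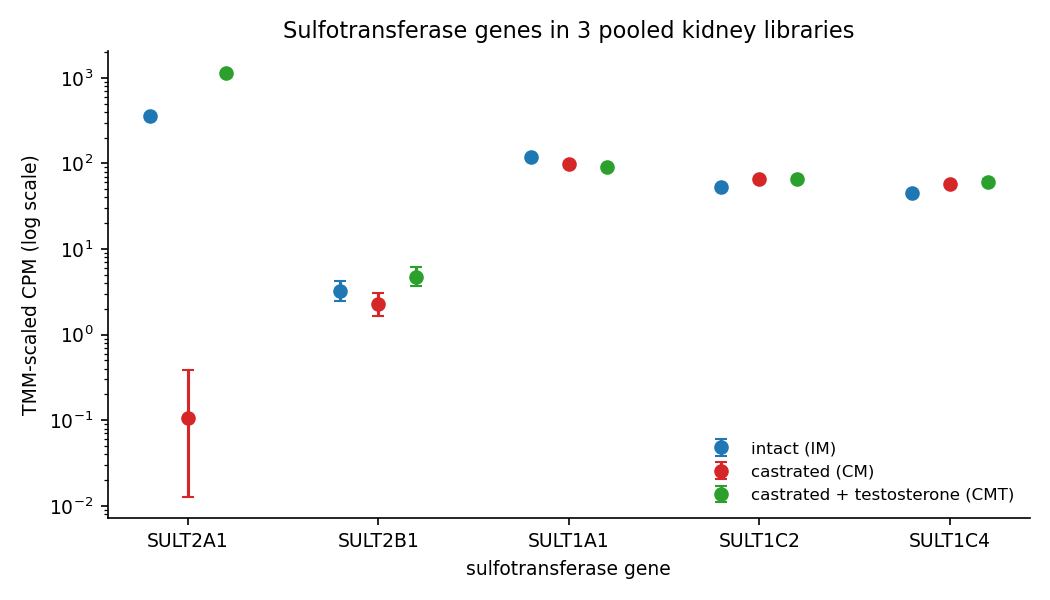
TMM-scaled CPM on a log axis for the sulfotransferase genes that passed the filter, in the intact, castrated and testosterone-treated pools; bars are exact 95% Poisson intervals of counting error and are hidden by the point where they are narrow. SULT2A1 lies at 0.106 in CM against 358 and 1150 in IM and CMT, while the other 4 genes differ by at most 2.09-fold from CM.

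The other measured cytosolic sulfotransferases had far smaller ratios. Of 13 symbols searched, 6 were matched to a row, and the 4 besides SULT2A1 that passed the filter were called in none of the 3 comparisons. SULT2B1, the other measured member of its subfamily and an enzyme of cholesterol and pregnenolone, gave 54 counts in IM, 43 in CM and 63 in CMT. Its CMT over CM ratio of 2.09 (1.40 to 3.16) leaned the same way as that of SULT2A1 but its interval began under 2, and that of IM over CM was 1.43 (0.943 to 2.19). These counts are low. The levels of SULT2B1 had the order CMT, IM, CM of SULT2A1 on a far smaller scale, at 4.76, 3.26 and 2.27 CPM. Its intervals of IM over CM and of CMT over IM took in 1.

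SULT1A1, a phenol sulfotransferase that RefSeq lists as a synonym of SULT1A3, gave 1969, 1869 and 1209 counts, an IM over CM ratio of 1.20 (1.13 to 1.28). SULT1C2 gave 872, 1240 and 862 counts and SULT1C4 gave 739, 1089 and 808, with CM over IM ratios of 1.25 (1.14 to 1.36) and 1.29 (1.18 to 1.42). These 3 members of the SULT1 family stayed within 1.37-fold between any pair of libraries. SULT4A1, a brain-type member, had 1 count, in CM. Reads of such similar genes may have been shared or split by the counting, whose method is unknown here.

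Summed over the matched sulfotransferases other than SULT2A1, the level was 219 (IM), 224 (CM) and 222 (CMT) CPM. With SULT2A1 it was 578, 225 and 1372. The family total therefore differed between the pools through this 1 gene. Of all sulfotransferase counts, SULT2A1 made up 62.0% in IM (exact 95% interval 61.0% to 63.0%), 0.0471% in CM (0.00571% to 0.170%) and 83.8% in CMT (83.3% to 84.3%). These are shares of counts, not corrected for gene length.

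Among the genes that supply the sulfate donor, 1 passed the 2-fold rule. PAPS is made from inorganic sulfate by the PAPS synthases, carried into the Golgi by SLC35B2 and SLC35B3, and its spent form is broken down by BPNT1 and IMPAD1. PAPSS2, the PAPS synthase matched here, gave 154 (IM), 97 (CM) and 137 (CMT) counts. Its level was lowest in CM, at an IM over CM ratio of 1.81 (1.40 to 2.36) and a CMT over CM ratio of 2.02 (1.54 to 2.64), neither interval lying beyond 2-fold. PAPSS1 was not matched to a row and is not analysed here.

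The PAPS transporter SLC35B2 gave 1207, 1569 and 1146 counts and SLC35B3 gave 180, 162 and 114. The phosphatases BPNT1 (954, 912 and 806 counts) and IMPAD1 (410, 345 and 285 counts) were likewise called in no comparison. All 4 had ratios between 0.737 and 1.26 in the comparisons with CM. Of 10 measured genes of PAPS supply and sulfate uptake, the only called one was SLC13A4, a sodium-sulfate cotransporter, with 18, 91 and 96 counts. It was higher than in IM by 4.43-fold (2.65 to 7.80) in CM and by 6.67-fold (4.005 to 11.7) in CMT, so that it did not go with SULT2A1. That is 10% of the 10 genes in each of these comparisons, beside 2.71% and 1.5% of all compared genes. Nothing is read from 1 gene of 10. SLC13A1, the sulfate carrier of the proximal tubule brush border, gave 4471, 3871 and 2350 counts and was not called.

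STS, the steroid sulfatase that undoes the reaction, stood in the opposite order. It gave 1067 counts in IM, 2221 in CM and 773 in CMT, the highest level being in the castrated pool. The CM over IM ratio was 1.82 (1.69 to 1.96) and the CM over CMT ratio 2.01 (1.85 to 2.19), both short of the 2-fold rule. Of 15 measured sulfatase genes, 1 was called, SULF1, which acts on heparan sulfate and not on steroids: it gave 67, 94 and 19 counts, with CM above CMT by 3.46-fold (2.10 to 6.01). Over the 29 measured genes of sulfation and desulfation other than SULT2A1, 1 was called in each comparison. That is 3.45%, beside 2.71%, 2.95% and 1.5% of all compared genes, and the median log2 ratio of the 29 was -0.11 in CM against IM and 0.06 in CMT against CM, where that of all compared genes was -0.0063 and -0.0043.

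**Figure D3:**
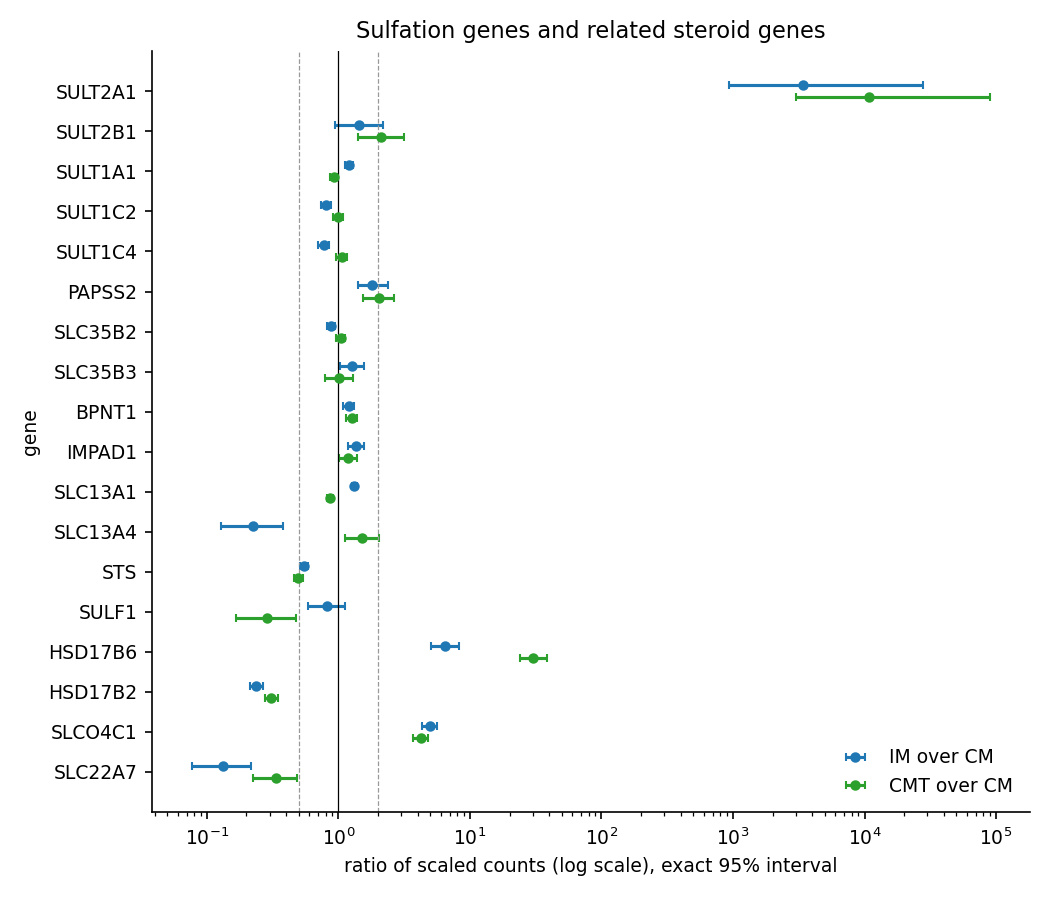
Ratios of scaled counts on a log axis for SULT2A1, other sulfation genes and named steroid and transport genes, IM over CM in blue and CMT over CM in green, with exact 95% intervals of counting error; dashed lines mark 2-fold and both ratios share the CM library. SULT2A1 lies at 3385 and 10868, HSD17B6 at 6.43 and 30.2, while PAPSS2 lies at 1.81 and 2.02 and SULT2B1 at 1.43 and 2.09.

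Transporters of steroid sulfates and other organic anions went both ways. Of 17 measured, CM was called above IM in 2 and below it in 2. CMT was called above CM in 2 and below it in 1, and 0 were called for CMT against IM. By the sign of the log2 ratio alone, 11 of the 17 were higher in CM than in IM. By the same sign, 5 were higher in CMT than in CM. SLCO4C1, a basolateral organic anion carrier of the proximal tubule that takes up steroid conjugates, gave 1236, 286 and 843 counts, an IM over CM ratio of 4.93 (4.335 to 5.63) and a CMT over CM ratio of 4.21 (3.68 to 4.83). SLC22A10 was also lowest in CM, with 3014, 959 and 1866 counts. In both, CMT lay below IM, unlike SULT2A1.

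The opposite order was seen for SLC22A7, an organic anion transporter, with 18, 154 and 36 counts and a CM over IM ratio of 7.49 (4.59 to 13.0). SLC22A6, the basolateral carrier OAT1, whose row bears the synonym POAT1-1, gave 2468, 9149 and 3135 counts, a ratio of 3.25 (3.105 to 3.40). The called share of the list was 23.5% in the first of these comparisons and 17.6% in the second, above the 2.71% and 2.95% of all compared genes, though the list was written with results of these data known. Its median log2 ratio was 0.11 in CM against IM and -0.13 in CMT against CM.

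Enzymes that make or alter the substrates of SULT2A1 also divided. DHEA comes from CYP11A1 and CYP17A1, and CYP17A1 had 0 counts in every library while CYP11A1 had 2, 2 and 0. Among 20 measured genes of steroid supply and turnover, CM was called above IM in 3 and below it in 2. CMT was called above CM in 3 and below it in 3, and above IM in 2. These are 25%, 30% and 10% of the list, written under the same limit, beside 2.71%, 2.95% and 1.5% of all compared genes, and its median log2 ratios were 0.24, -0.07 and 0.16.

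HSD17B6, which oxidises and epimerises androgen metabolites such as androstanediol, gave 428, 76 and 1607 counts. It shares the order CMT, IM, CM with SULT2A1 on a far smaller scale, at 6.43-fold (5.03 to 8.32) for IM over CM, 30.2-fold (24.0 to 38.5) for CMT over CM and 4.70-fold (4.22 to 5.24) for CMT over IM. The other called genes of the list are CYP27A1, HSD17B2, HSD17B4, POR and SRD5A2, the steroid 5-alpha-reductase whose row bears the synonym ST5AR2. CYP27A1, the sterol 27-hydroxylase, was highest in CM with 94, 980 and 222 counts, and HSD17B2, which inactivates testosterone and estradiol, with 351, 1686 and 365. HSD17B4, a peroxisomal enzyme, was lowest in CM with 11993, 3978 and 9458 counts.

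Glucuronidation is the other main route of steroid conjugation, and 0 of its 6 measured genes were called in any comparison, where 2.71%, 2.95% and 1.5% of all compared genes were; with so few genes nothing is read from this. Their median log2 ratio was -0.13 in CM against IM and 0.40 in CMT against CM.

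Receptors and transcription factors known to act on SULT2A1 genes in liver, adrenal or intestine were present, mostly at like levels. HNF4A, a factor of liver and kidney, gave 14614, 16404 and 12147 counts, and its CM over IM ratio was 0.983 (0.961 to 1.01). NR1I2, the xenobiotic receptor PXR, gave 1720, 1910 and 1120 counts, a CM over IM ratio of 0.973 (0.911 to 1.04). NR1I3, the receptor CAR, gave 1469, 1217 and 1030 counts.

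Of 20 measured regulators, 1 was called lower for CM against IM. CMT was called above CM in 2 and below it in 1, and 0 were called for CMT against IM. These are 5%, 15% and 0% of the list, beside 2.71%, 2.95% and 1.5% of all compared genes. ESR1, the estrogen receptor alpha, was likewise lowest in CM but higher in IM than in CMT, at 252, 18 and 140 counts, an IM over CM ratio of 16.0 (9.91 to 27.4) and a CMT over CM ratio of 11.1 (6.78 to 19.3). NR1H4, the bile acid receptor FXR, gave 957, 536 and 921 counts with CMT above CM by 2.45-fold (2.20 to 2.735). In IM it was above CM by 2.04-fold (1.83 to 2.27), short of the rule. PPARA, the fatty acid receptor, was lowest in CMT, with 234, 343 and 76 counts. NR5A1, a factor of adrenal and gonadal SULT2A1 expression, had 0 counts in every library.

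Since SULT2A1 is known from adrenal cortex and liver, the markers of those organs were read beside it. Of 13 adrenal cortex symbols 11 were matched, with a summed level of 25.7 (IM), 31.7 (CM) and 25.9 (CMT) CPM. FDXR, a mitochondrial reductase that many tissues express, made up 21.5, 26.3 and 21.5 CPM of these sums, and the other 10 genes together 4.23, 5.40 and 4.38. In all libraries 3 of the 11 were at 0, the defining genes CYP17A1 and NR5A1 and the ACTH receptor's accessory protein MRAP, and CYP21A2, the adrenal 21-hydroxylase, had 0, 0 and 1 counts. STAR, which brings cholesterol into mitochondria of steroid-making cells, had 12, 3 and 13 counts, lowest in CM; its part in the result was not tested. Of 3 markers of steroid-making testis cells, INSL3 and LHCGR, genes of testicular Leydig cells, were at 0 in all 3 libraries. The other, HSD17B3, had 2 counts in IM, 5 in CM and 2 in CMT.

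Hepatocyte markers did not move as 1 group. Of 20 symbols 19 were matched, with a summed level of 1122, 745 and 1046 CPM; their part in the result was not tested. TF and ALB, singled out after their values were seen, made up 744, 286 and 578 CPM of the sums, and the other 17 genes 379, 459 and 469, lowest in IM. Of the 13 that passed the filter, CM was called above IM in 3 and below it in 2. CMT was called above CM in 3 and below it in 1, and above IM in 1 and below it in 1. These are 38.5%, 30.8% and 15.4% of the 13, beside 2.71%, 2.95% and 1.5% of all compared genes, and their median log2 ratios were -0.10, 0.54 and 0.05.

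ALB, albumin, gave 1952, 24 and 404 counts and TF, transferrin, 10365, 5382 and 7240. Both were lowest in CM like SULT2A1, but their CMT over IM ratios were 0.259 and 0.874. SERPINC1, antithrombin, gave 574 (IM), 344 (CM) and 646 (CMT) counts, so that its levels had the order CMT, IM, CM. Its CMT over CM ratio was 2.68 (2.35 to 3.07) and its IM over CM ratio 1.91 (1.66 to 2.18). By contrast APOC3, an apolipoprotein (249, 1591 and 307 counts), stood the other way and TTR, transthyretin, was lowest in IM (133, 489 and 775). APOB, the core protein of liver lipoproteins, had 1, 0 and 5 counts and CYP2E1, an abundant liver P450, had 0 in each, while F2, prothrombin, had 3923, 4184 and 3228.

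**Figure D4:**
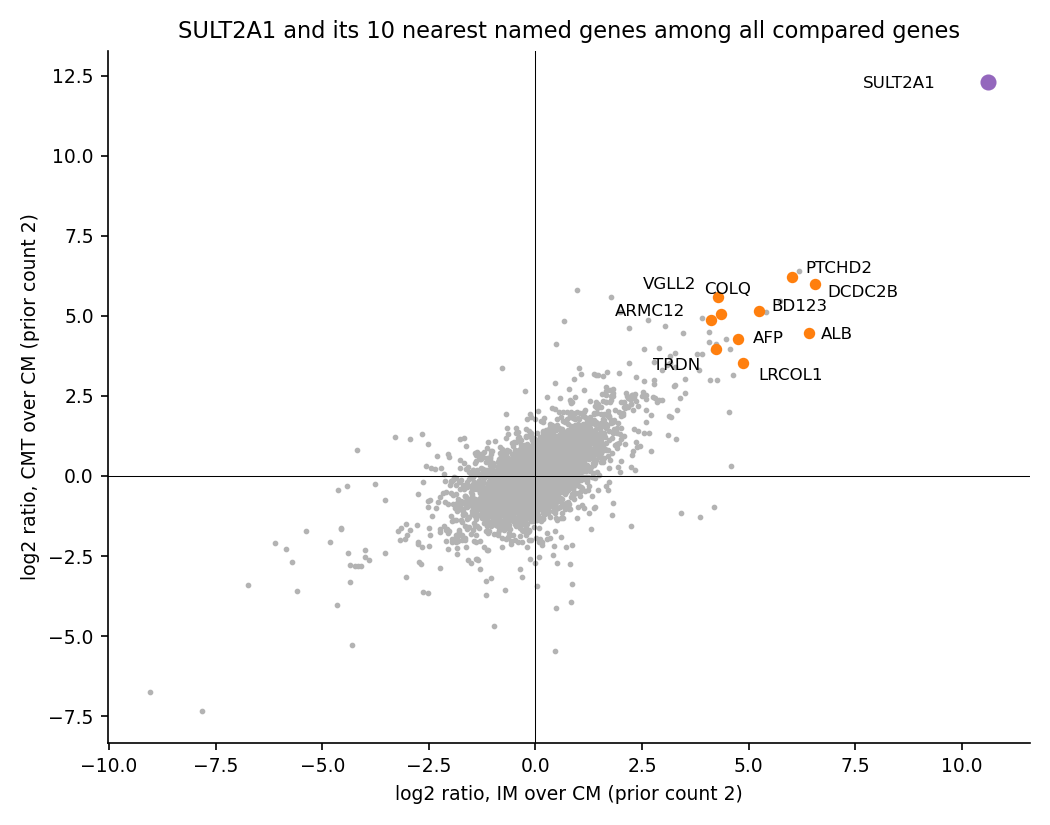
Log2 ratio of CMT over CM against log2 ratio of IM over CM for the 15472 compared genes (grey), with a prior count of 2; SULT2A1 is purple and its 10 nearest genes with a symbol are orange. Both axes share the CM library, so points lean to the diagonal by construction; SULT2A1 stands at 10.61 and 12.29, 7.50 log2 units from the nearest named gene.

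Likeness to SULT2A1 was measured as the distance between genes in the pair of log2 ratios IM over CM and CMT over CM, over these 3 libraries. This distance is set mostly by the size of the ratios, on which SULT2A1 was chosen, so nothing is read from how far it stands apart. SULT2A1 lay at 10.61 and 12.29, and the nearest gene with a symbol, DCDC2B, was 7.50 log2 units away. Next came PTCHD2, with 131, 0 and 118 counts and a distance of 7.63, then ALB (8.89) and BD123, a beta-defensin (8.94; 75, 0 and 56 counts). With 3 counts put in place of the 0 in CM, the PTCHD2 ratio was 49.9 for IM over CM and 56.2 for CMT over CM. The exact intervals of counting error began lower, at 39.98 for IM over CM and 44.98 for CMT over CM.

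The others of the 10 nearest were VGLL2, COLQ, ARMC12, AFP, LRCOL1 and TRDN, at distances of 9.23 to 10.50. VGLL2, a cofactor of transcription known from muscle, gave 105, 4 and 212 counts and COLQ, the collagen tail of acetylcholinesterase, gave 399, 20 and 515. ARMC12 gave 200, 11 and 273. In these 3 genes and in PTCHD2 CMT lay above IM, as in SULT2A1, whereas in ALB, BD123, AFP (194, 6 and 111), LRCOL1 (58, 0 and 17), DCDC2B and TRDN (135, 6 and 89) it lay below. The interval of CMT over IM took in 1 for PTCHD2 (0.871 to 1.46), BD123 (0.649 to 1.34) and TRDN (0.624 to 1.09). The direction is not settled for these. The TRDN symbol was looked up for a numbered row typed as miscRNA, so the row may not hold the protein-coding transcript. By the shape of the profile alone, the cosine between log2 values centred on their mean, COLQ and ARMC12 (both at 0.9998 or above) were the closest of the 10 and ALB (0.910) the least close.

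**Figure D5:**
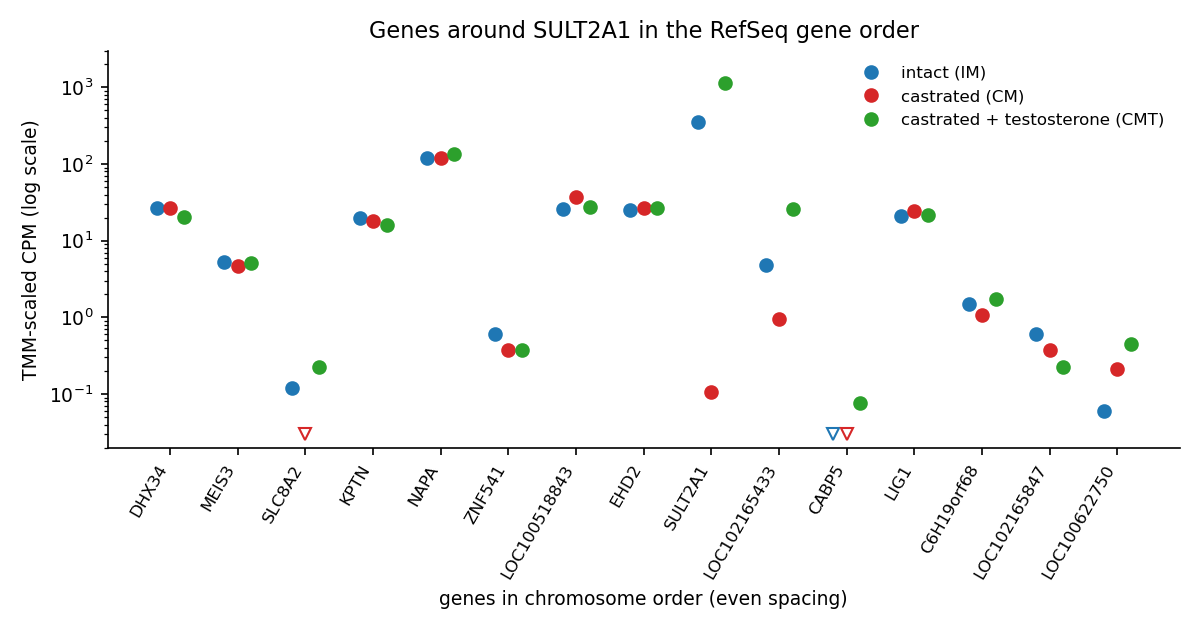
TMM-scaled CPM on a log axis for SULT2A1 and the neighbouring genes that had a count, in the gene order of RefSeq assembly Sscrofa11.1 with even spacing; open triangles mark 0 counts and are drawn at the foot of the axis. SULT2A1 and the adjacent LOC102165433 are ordered CMT, IM, CM, as are C6H19orf68 and SLC8A2 at low counts. Compared genes such as NAPA, EHD2 and LIG1 have near-equal levels in the 3 pools.

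The genes around SULT2A1 on its chromosome were read from the RefSeq gene order, a step added after the data were seen. Of the 12 annotated genes on each side, 18 were matched to a row, 4 of them at 0 counts in every library, and 9 passed the filter. In each comparison 1 of the 9 was called, and it was the same one. That is 11.1%, beside 2.71%, 2.95% and 1.5% of all compared genes, and nothing is read from 1 gene of 9. LOC102165433, the next gene after SULT2A1 in that order, is a long noncoding RNA in RefSeq, although the deposited table types its row as mRNA.

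LOC102165433 gave 80 counts in IM, 18 in CM and 347 in CMT. The order is that of SULT2A1, with ratios of 5.07 (3.02 to 8.99) for IM over CM, 27.5 (17.2 to 47.0) for CMT over CM and 5.43 (4.24 to 7.01) for CMT over IM. In CM it had more counts than SULT2A1, whereas in IM and CMT it had far fewer. The strand setting and annotation behind the counts are unknown here, so reads of one row cannot be told apart from transcripts that run on from the other.

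None of the other compared neighbours was called in any comparison. C6H19orf68 had the order CMT, IM, CM at low levels of 1.51 (IM), 1.06 (CM) and 1.74 (CMT) CPM. MEIS3 was also lowest in CM, at 5.19 (IM), 4.71 (CM) and 5.06 (CMT) CPM. For both genes the intervals took in 1 in every comparison. The rest of the compared neighbours were not lowest in CM. EHD2, a membrane-shaping ATPase, gave 413, 500 and 358 counts, and LIG1, a DNA ligase, gave 347, 459 and 287. NAPA, a membrane fusion protein, gave 1992, 2283 and 1786. CRX, the gene just before SULT2A1 and a factor of the retina, had 0 counts throughout, as had BSPH1 and ELSPBP1, genes of sperm-binding proteins, on the other side. Besides LOC102165433, the nearest compared genes on either side were EHD2 and LIG1.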

How the data were processed

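Kidney RNA of 3 pools of pigs was compared. Per the labels' protocols, equal amounts of RNA from the pigs of each group were pooled before library preparation, so each group is 1 library; the series' design text speaks of triplicates, which the 1 column of counts per group does not show. The authors deposited whole-number counts per gene without normalization; the submitters' processing notes name FastQC. What aligner, counter, build, annotation and strandedness lie behind the counts is not given in the sources used here. Of the 34570 rows, 19902 carry a numbered identifier; 1556 of these were given a symbol by gene number from the RefSeq table of assembly Sscrofa11.1, which also gave synonyms and the order of neighbouring genes, and no coordinates.

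Counts were scaled with TMM factors of 1.01 (IM), 1.02 (CM) and 0.973 (CMT) from edgeR 4.0.16 in R 4.3.3, used for scaling only. Genes with a mean of at least 1 scaled CPM were compared. A ratio of scaled counts carries an exact Clopper-Pearson 95% interval (scipy 1.17.1), and a gene was called where this interval lay wholly beyond 2-fold. Intervals cover counting error only, since reads are not independent molecules. With 1 library a group there is no p-value. For log2 ratios the prior count was 2. With 0 counts in one library, a ratio was computed with 3 counts in its place. The interval and call rule were tried on simulated Poisson counts with known folds. These counts had no spread between pigs or libraries, so the trial checks the calculation and not the calls in these data. SULT2A1 was chosen for its counts in these libraries, and the gene lists, the alternatives and the rule for named genes were written with earlier results of these data known. The named genes are SULT2A1, every measured sulfotransferase and cofactor gene, STS, called members of the other lists (at most 4 a list), a fixed set of regulators and markers (some of which are not reported here), and the 10 genes with a symbol most like SULT2A1. Alternatives were other library scalings, thinning, other filters, other call rules and other measures of likeness.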

Additional observations from a re-analysis of the deposited data

How the results depend on the processing

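With another library scaling or after thinning, the ratio of IM over CM ran from 3333 to 4986 and that of CMT over CM from 10352 to 16014, all inside the reported intervals. CMT over IM was 3.11 with total counts alone and between 3.11 and 3.24 in all. The value with total counts alone lay just under the reported interval of 3.12 to 3.31, and the others lay inside it. Counts of called genes depend on the rule: for CM against IM, CMT against CM and CMT against IM they were 271, 300 and 132 with a mean of at least 5 CPM, 1020, 1103 and 764 where the ratio itself passed 2-fold, and 199, 196 and 90 where the interval passed 3-fold. Ranked among genes typed as mRNA, SULT2A1 was at 367 in IM, 16658 in CM and 72 in CMT. By cosine, 1 of the 10 nearest genes was shared. With the ratio itself beyond 2-fold, 4 sulfation genes passed for CMT against CM, while 2 sulfation genes, not all among those 4, and 1 transport gene passed for CMT against IM. A rank per coding length was not run, because no lengths were used here. No paired analysis was possible because each group is 1 pooled library, and for the same reason no replicate could be left out. At 2 counts in CM, the interval of its level ran from 0.0131 to 0.390 CPM.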

Other observations

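Among rows without a symbol, LOC102159016, typed as miscRNA, was nearer to SULT2A1 than any named gene, at 7.37 log2 units, with 402 counts in IM, 4 in CM and 371 in CMT. LOC100738626, typed as mRNA, followed the named genes DCDC2B and PTCHD2 at 8.40, with 896, 17 and 593 counts. Their ratios of IM over CM were 115 (44.5 to 423) and 60.2 (37.4 to 104). LOC100521229, chosen after its values were seen among rows with at most 2 counts in CM, was low in both IM and CM and high in CMT, at 11, 2 and 145 counts.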
